A study of Macaca fascicularis with 44 samples.

Results

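Betamethasone is a synthetic glucocorticoid, a relative of the stress hormone cortisol that binds the glucocorticoid receptor. The bound receptor enters the nucleus, attaches to DNA or to other transcription factors, and raises the transcription of some genes while lowering that of others. Neurons and glia of the hippocampus, amygdala and cingulate cortex carry this receptor, and these regions take part in the control of the stress response. The 6 identifiers described here are genes of the cynomolgus macaque (Macaca fascicularis) whose RNA level stood modestly lower in animals given betamethasone than in animals given saline, in several of these regions at once. They are ENSMFAG00000042464, ENSMFAG00000038890, ENSMFAG00000001780, ENSMFAG00000001388, ENSMFAG00000002894 and ENSMFAG00000001731, out of 17293 identifiers counted. The tables do not pair identifiers with gene names, and 0 of the 17293 matched the RefSeq gene table used here, so no symbol, function, position or sequence is given.

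The identifiers were picked from the comparison of betamethasone with saline in these same libraries. Every difference between the treatments, also on single table rows of an identifier, is therefore a description of the choice. No p-value is given for it, and the counts of calls printed beside it support nothing. Levels between regions and the way the identifiers varied among libraries of one group did not enter the choice.

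RNA-seq was done on 44 libraries of female macaques. Tissue came from the dentate gyrus of the hippocampus, in an anterior (aDG) and a posterior part (pDG), from the basolateral nucleus of the amygdala (BLA) and from anterior cingulate cortex (ACC). For betamethasone there were 5 libraries of aDG, 5 of pDG, 4 of BLA and 6 of ACC, and for saline 6 of each region. The labels give no dose, duration, age or animal number. Because nothing in them ties a replicate to an animal of its own, the spread behind the p-values may be partly technical. Levels are gene reads scaled to a common library total (CPM) and are compared for one identifier at a time, because they are not corrected for gene length.

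Depth ran from 28449737 to 83322595 gene reads per library, and the 6 identifiers held between 50 and 12435 reads in a library. By correlation with region means, 43 of 44 libraries lay closest to their own region when the parts of the dentate gyrus were counted as one. The exception was aDG saline replicate 5, which lay closest to BLA (r = 0.985 against 0.966 to aDG). That library, BLA saline replicate 5 and pDG saline replicate 6 are named below for the main results they touch, not for all. BLA saline replicate 5 was left out in an alternative fit because of earlier results of these data. In pDG saline replicate 6, 31.4% of reads were unmapped, against a median of 13.5%. In bulk tissue a lower level may be fewer cells of a type or less RNA per cell, which cannot be told apart.

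ENSMFAG00000042464 was lower with betamethasone by a similar factor in each region, between 1.60-fold and 1.85-fold. In aDG the betamethasone libraries held 19.2, 26.4, 20.18, 28.4 and 26.1 CPM, and the saline libraries 37.6 to 47.4 CPM with a median of 39.5. In BLA they held 18.9, 24.3, 19.4 and 26.9 CPM against 31.7 to 45.8 CPM (median 35.8). In both regions every betamethasone library lay below every saline library. In pDG the betamethasone libraries held 17.1, 18.8, 16.2, 17.6 and 22.98 CPM and the saline libraries 17.97 to 47.1 CPM (median 36.1). The groups overlapped there through 1 saline library, replicate 6, which at 17.97 CPM lay within the betamethasone range. In ACC the range was 19.2 to 35.7 CPM (median 24.4) with betamethasone and 35.7 to 50.22 CPM (median 40.75) with saline. The highest betamethasone library there, replicate 3, met the lowest saline library. The other 5 held at most 26.3 CPM. The log2 changes were -0.77 ± 0.11 (SE) in aDG, -0.89 ± 0.20 in pDG, -0.68 ± 0.14 in BLA and -0.73 ± 0.14 in ACC. Without pDG saline replicate 6 the pDG value was -1.03, and without ACC betamethasone replicate 3 the ACC value was -0.86. Other fits gave smaller changes. Over all fits the pDG value ran from -1.03 to -0.80 and the ACC value from -0.86 to -0.67.

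ENSMFAG00000038890 showed the largest factors of the 6 in aDG, pDG and BLA. In aDG the betamethasone libraries held 6.67, 9.01, 7.26, 8.61 and 10.1 CPM against 14.5 to 25.01 CPM (median 16.2) with saline. In pDG they held 7.08, 7.46, 5.63, 6.86 and 10.57 CPM against 10.62 to 22.8 CPM (median 15.1). In BLA they held 5.44, 6.83, 7.13 and 8.97 CPM against 10.15 to 19.96 CPM (median 13.7). The groups did not overlap in any of these 3 regions, though in pDG the gap was only 0.051 CPM wide. The lowest saline library of pDG was replicate 6. In ACC the level was 7.81 to 19.004 CPM (median 11.1) with betamethasone and 14.8 to 28.9 CPM (median 19.5) with saline. Replicate 3 was again the highest betamethasone library, and it alone passed the lowest saline value. The log2 changes were -1.09 ± 0.17 (SE) in aDG, -1.03 ± 0.21 in pDG, -0.95 ± 0.20 in BLA and -0.71 ± 0.20 in ACC. Without ACC betamethasone replicate 3 the ACC value was -0.88, and without ACC saline replicate 2 it was -0.57.

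ENSMFAG00000001780 had few reads, 50 to 390 per library, and a coefficient of variation up to 38.3%, in pDG saline libraries. In aDG the betamethasone libraries held 3.14, 1.71, 3.09, 2.88 and 3.91 CPM, all below the saline range of 4.06 to 7.19 CPM (median 4.75). In pDG they held 2.62, 1.34, 2.44, 1.57 and 2.46 CPM against 1.95 to 5.95 CPM (median 3.895), where 3 of them lay above saline replicate 6, the lowest of its group. In BLA they held 4.22, 3.605, 3.70 and 4.79 CPM against 4.68 to 8.37 CPM (median 5.78). A single betamethasone library of BLA reached into the saline range, whose lowest library was replicate 5. In ACC the level was 2.45 to 5.51 CPM (median 3.75) with betamethasone and 4.46 to 7.93 CPM (median 5.57) with saline, and 2 betamethasone libraries lay above the lowest saline library. The log2 changes were -0.85 ± 0.25 (SE) in aDG, -0.94 ± 0.29 in pDG, -0.49 ± 0.21 in BLA and -0.55 ± 0.21 in ACC. Without pDG saline replicate 6 the pDG value was -1.09, and without ACC betamethasone replicate 3 the ACC value was -0.68. Other fits gave smaller changes. Over all fits the value ran from -1.09 to -0.81 in pDG, -0.58 to -0.38 in BLA and -0.79 to -0.44 in ACC.

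ENSMFAG00000001388 was also of low level, with 139 to 582 reads per library. In aDG the betamethasone libraries held 4.85, 5.04, 6.01, 5.44 and 5.66 CPM, a narrow range, against 5.202 to 14.2 CPM (median 10.25) with saline. The lowest saline value belonged to replicate 5, the library closest to BLA, and the other 5 saline libraries held at least 8.04 CPM. In pDG the betamethasone libraries held 5.299, 3.71, 6.31, 4.37 and 3.58 CPM against 6.07 to 9.96 CPM (median 7.32), with 1 library in the saline range. The lowest saline library there was replicate 6. In BLA the betamethasone libraries held 4.69, 4.77, 3.43 and 3.85 CPM, below all saline libraries at 5.69 to 9.402 CPM (median 7.24). Replicate 5 was the lowest of that saline group. In ACC the level was 4.903 to 6.99 CPM (median 6.11) with betamethasone and 6.33 to 10.07 CPM (median 9.19) with saline, and 1 library of each group lay within the range of the other. The log2 changes were -0.84 ± 0.21 (SE) in aDG, -0.66 ± 0.19 in pDG, -0.74 ± 0.18 in BLA and -0.55 ± 0.13 in ACC.

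ENSMFAG00000002894 was the member with the smallest spread among betamethasone libraries of aDG, a coefficient of variation of 5.76% against 19.3% with saline. The aDG betamethasone libraries held 95.1, 99.2, 97.1, 86.96 and 101.3 CPM against 112.7 to 201.4 CPM (median 152.0), with no overlap. In pDG they held 130.1, 79.5, 100.04, 91.5 and 88.4 CPM against 123.5 to 173.9 CPM (median 150.9). Replicate 1 alone reached the saline range there. In BLA they held 107.0, 119.6, 97.02 and 120.3 CPM against 95.3 to 214.8 CPM (median 151.7), and all 4 lay above the lowest saline library. That library was replicate 5, and the remaining 5 of the saline group, at 123.8 CPM or more, stood above every betamethasone library. In ACC the level was 52.5 to 67.4 CPM (median 60.88) with betamethasone and 65.4 to 93.9 CPM (median 80.52) with saline. The log2 changes were -0.66 ± 0.12 (SE) in aDG, -0.60 ± 0.11 in pDG, -0.43 ± 0.19 in BLA and -0.36 ± 0.09 in ACC. Without BLA saline replicate 5 the BLA value was -0.55, and without BLA saline replicate 3 it was -0.35.

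ENSMFAG00000001731 had the smallest factors of the 6 in aDG, pDG, BLA and ACC, between 1.24-fold and 1.41-fold. In aDG the betamethasone libraries held 73.5, 84.8, 72.1, 87.7 and 89.5 CPM against 92.03 to 120.1 CPM (median 108.4), and in BLA 65.2, 70.55, 68.6 and 76.1 CPM against 77.002 to 126.7 CPM (median 88.7). The groups stood apart in both regions, by 2.51 CPM and 0.858 CPM. In pDG the betamethasone libraries held 89.9, 53.98, 62.6, 71.3 and 75.3 CPM against 77.4 to 152.2 CPM (median 92.6), and 1 of them, replicate 1, lay above 3 saline libraries. In ACC the ranges of 53.1 to 68.3 CPM (median 61.98) with betamethasone and 60.75 to 97.4 CPM (median 71.8) with saline shared 4 betamethasone and 3 saline libraries. The log2 changes were -0.39 ± 0.10 (SE) in aDG, -0.49 ± 0.16 in pDG, -0.38 ± 0.14 in BLA and -0.31 ± 0.12 in ACC. Saline replicate 5 was the highest saline library of each region. Without it the value was -0.34 in aDG, -0.35 in pDG, -0.29 in BLA and -0.24 in ACC.

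**Figure D1:**
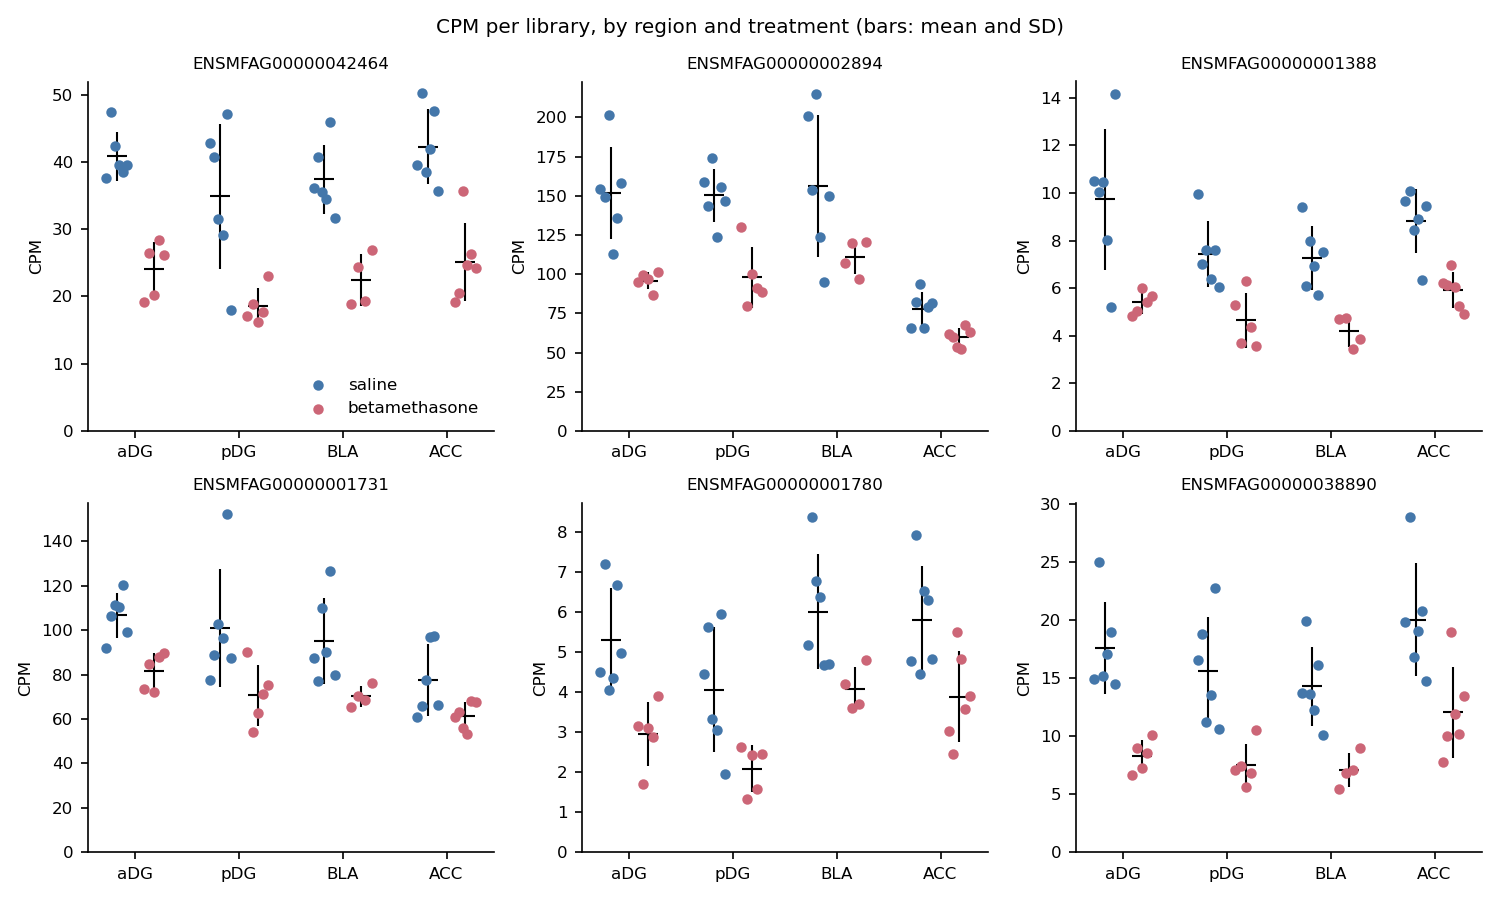
CPM of each of the 6 identifiers in every library, by region on the horizontal axis and treatment by colour, with black bars for the mean and SD of a group (n = 4 to 6). Betamethasone points lie under most saline points in each panel, and the low saline point of ENSMFAG00000042464 in pDG is replicate 6 at 17.97 CPM. The ACC means of ENSMFAG00000002894 lie under the means of the other regions, though single ACC saline points overlap betamethasone points of other regions.

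Over all 24 combinations of an identifier and a region, the log2 change lay between -0.31 and -1.09, and in 10 of them the groups did not overlap. These were 5 of 6 identifiers in aDG, where 0.276% of all genes tested stood lower without overlap, and 1 of 6 in pDG (0.374% of all genes). They were 4 of 6 in BLA (1.66% of all genes, with 4 betamethasone libraries) and 0 of 6 in ACC (0.763%). All 6 had a lower value in each of the 4 regions, as did 18.1% of the 14137 genes tested in all of them. The choice of the identifiers used this contrast, so nothing follows from the gap between these shares. In the fit across all genes, edgeR's adjusted p under 0.05 called 1 of the 6 in ACC, ENSMFAG00000042464. There it called 0.124% of all genes as lower. The call of the member held in 3 of 12 fits that each left out 1 library. It is drawn from the contrast used in the choice and supports nothing. In the other regions edgeR called 0 of the 6 and 0 of all genes (0%) as lower. Its unadjusted p was under 0.05, in either direction, for 3.71% of all genes in aDG, 8.72% in pDG, 10.2% in BLA and 16% in ACC, and DESeq2 called 36, 82, 73 and 557 genes in either direction.

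**Figure D2:**
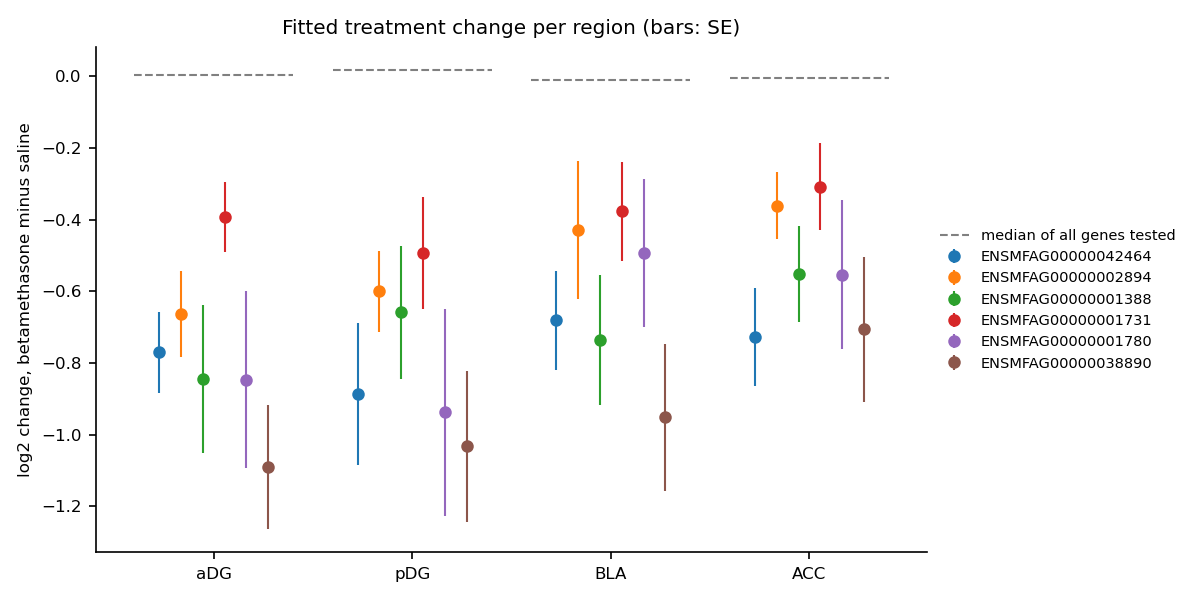
Fitted log2 change of betamethasone against saline for each identifier in each region (vertical axis), with bars of 1 SE and a dashed line for the median of all genes tested. ENSMFAG00000038890 runs from -1.09 in aDG to -0.71 in ACC and ENSMFAG00000001731 from -0.49 in pDG to -0.31 in ACC, while the dashed lines lie between -0.01 and 0.02.

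The median log2 change of the 6 was -0.81 in aDG, -0.77 in pDG, -0.59 in BLA and -0.55 in ACC, against 0.00, 0.02, -0.01 and -0.00 over all genes tested. Differences between regions in the size of the change were not tested, because the choice of the identifiers used each region's change. In ACC the fraction of mapped reads lying outside genes had a lower mean with betamethasone, with overlapping groups, 28.5% ± 1.55 (SD, n = 6) with betamethasone and 31.4% ± 3.31 (SD, n = 6) with saline. With that share as a covariate the ACC log2 change was -0.17 for ENSMFAG00000001731 and -0.22 for ENSMFAG00000002894, smaller than without it. It was -0.69 for ENSMFAG00000001388, -0.79 for ENSMFAG00000001780, -0.81 for ENSMFAG00000042464 and -0.91 for ENSMFAG00000038890, larger than without it. The covariate also moved changes in the other regions, in both directions. In BLA that of ENSMFAG00000001731 was -0.27 against -0.38 without it, and that of ENSMFAG00000002894 -0.46 against -0.43. In pDG that of ENSMFAG00000001780 was -0.82 against -0.94.

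One identifier, ENSMFAG00000038890, stood on 2 rows of the tables, and the other 5 on 1 row each. The values above are the sum of both rows. The first row held 91.5% of its reads and the second 8.49%, so the treatment difference that led to its choice was mostly that of row 1. Row 1 averaged 7.12 ± 1.28 CPM (SD, n = 5) with betamethasone and 16.5 ± 3.92 (SD, n = 6) with saline in aDG, 6.45 ± 1.90 and 14.6 ± 4.54 in pDG, 6.31 ± 1.59 and 13.3 ± 3.33 in BLA, and 10.7 ± 3.77 and 18.6 ± 4.79 in ACC. Row 2 averaged 1.21 ± 0.655 CPM with betamethasone and 1.08 ± 0.244 with saline in aDG, 1.06 ± 0.463 and 1.05 ± 0.235 in pDG, 0.784 ± 0.428 and 1.01 ± 0.165 in BLA, and 1.37 ± 0.587 and 1.41 ± 0.168 in ACC. With the rows kept apart, a step added after the values were seen, the log2 change of row 1 was -1.22 in aDG, -1.15 in pDG, -1.01 in BLA and -0.77 in ACC. That of row 2 was 0.14 ± 0.34 (SE), 0.03 ± 0.29, -0.32 ± 0.32 and -0.03 ± 0.26.

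Row 2 rested on 25 to 94 reads per library, and in each region its highest value was betamethasone replicate 2. That replicate held 2.21 CPM in aDG, 1.82 CPM in pDG, 1.42 CPM in BLA and 2.31 CPM in ACC. The next betamethasone library of a region held at most 1.78 CPM, in ACC. In row 1 the same replicates held 6.80, 5.64, 5.41 and 7.72 CPM, within the range of their groups and not the highest of any. The title numbers of these 4 libraries belong to one series of numbers that runs in parallel through the regions, but the labels do not say that they came from one animal. Without replicate 2 the betamethasone mean of row 2 was 0.957 CPM in aDG, 0.874 CPM in pDG, 0.570 CPM in BLA and 1.18 CPM in ACC, each below the saline mean, with differences in aDG, pDG and ACC under 1 SD of the betamethasone libraries. That replicate was singled out after its values were seen, and leaving out the highest value had to lower the mean. The share of the identifier's reads on row 2 was 4.99% to 9.62% over all 24 saline libraries and 5.85% to 24.5% over the betamethasone libraries. Its betamethasone medians were 13.7% in aDG, 12.6% in pDG, 9.58% in BLA and 9.74% in ACC, and the saline medians 5.64%, 6.78%, 7.30% and 7.40%. The highest share in each region, 20.9% to 24.5%, was that of betamethasone replicate 2. A share moves with both rows, and row 1 was lower with betamethasone.

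**Figure D3:**
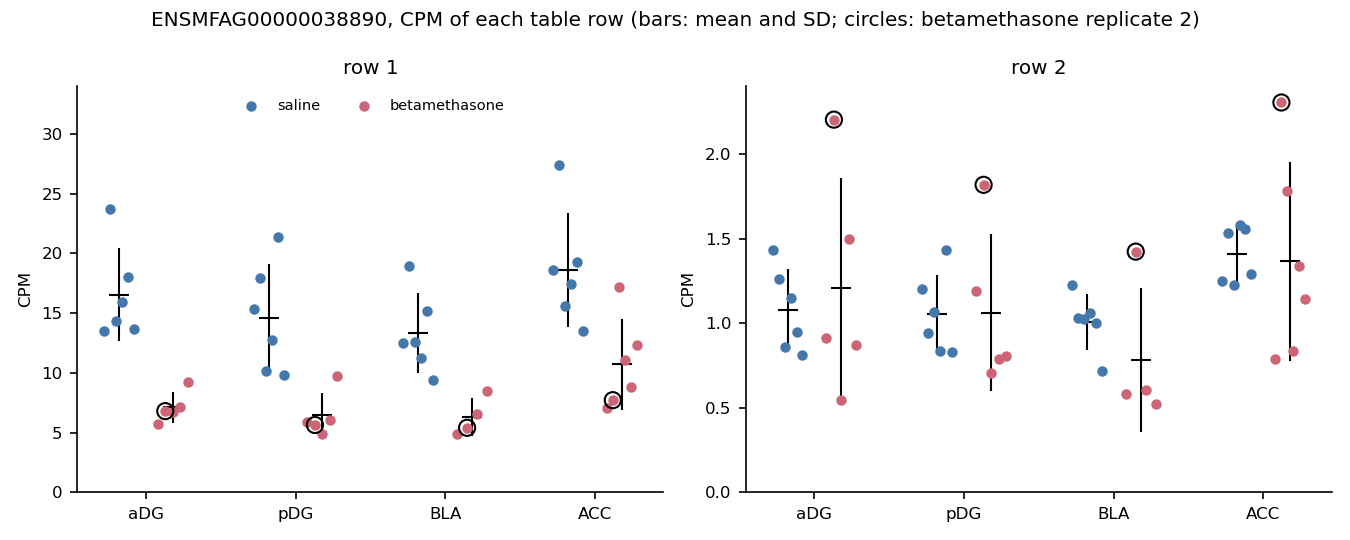
CPM of both table rows of ENSMFAG00000038890 in every library, by region and treatment, with black bars for mean and SD and circles around betamethasone replicate 2. Row 1 stands lower with betamethasone in the 4 regions, and in row 2 the circled library is the highest of its region, at 1.42 to 2.31 CPM.

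The levels of the 6 identifiers were then compared between regions, a contrast that weighs both treatments equally and did not enter their choice. Fits in libraries of 1 treatment, given below as alternatives, also hold part of each region's treatment change, which did enter the choice. The contrast over both treatments was fitted over all 44 libraries, and adjusted p-values are from edgeR's quasi-likelihood test over 15257 genes. This fit does not match libraries across regions. In a fit that matched them by title number, given in the closing section, 5 more comparisons passed. Statements below that regions did not differ hold for the unmatched fit only. Of the 36 comparisons (6 identifiers, 6 pairs of regions) 15 passed the threshold of 0.05. Between pDG and ACC 6 of 6 passed, where 55.2% of all genes did. Between aDG and ACC 3 of 6 passed (56.5% of all genes) and between BLA and ACC 4 of 6 (49.2%). Between aDG and BLA 1 of 6 passed (26.9%), between pDG and BLA 1 of 6 (29.6%) and between aDG and pDG 0 of 6 (3.49%). The share was above that of all genes between pDG and ACC and between BLA and ACC, and under it in the other pairs. None of these counts was tested, and with 6 identifiers nothing is read from them.

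ENSMFAG00000002894 had the clearest difference, with ACC as its lowest region. The mean over both treatments was 133.7 CPM in BLA, 124.1 in pDG, 124.0 in aDG and 68.8 in ACC. The log2 difference was 0.96 ± 0.10 (SE) for BLA over ACC (edgeR adjusted p = 9.52e-11), 0.84 ± 0.09 for pDG over ACC (6.88e-10) and 0.80 ± 0.09 for aDG over ACC (2.44e-09). All 3 passed in saline libraries alone, in betamethasone libraries alone and in every other alternative fit. The neighbours BLA, pDG and aDG did not differ beyond their spread (edgeR adjusted p of 0.262 to 0.892). ENSMFAG00000001731 had the same order at its lower end, 94.04 CPM in aDG, 85.7 in pDG, 82.7 in BLA and 69.5 in ACC. It was higher than in ACC by 0.41 ± 0.09 in aDG (edgeR adjusted p = 0.000285), 0.30 ± 0.09 in pDG (0.00664) and 0.25 ± 0.10 in BLA (0.0292) on the log2 scale, and aDG, pDG and BLA did not differ detectably (0.248 to 0.779). The aDG difference passed in every alternative fit. The pDG difference was lost in betamethasone libraries alone (0.19, edgeR adjusted p = 0.128). The BLA difference was lost in betamethasone libraries alone (0.19, edgeR adjusted p = 0.178) and in saline libraries alone, where it was no smaller (0.29, edgeR adjusted p = 0.151). It was also lost with the share of reads outside genes as a covariate (0.103), and on leaving out ACC betamethasone replicate 4, ACC saline replicate 1, 2 or 6, BLA betamethasone replicate 4 or BLA saline replicate 5 (0.0501 to 0.0751).

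ENSMFAG00000038890 had the reverse order, with ACC as its highest region at 16.05 CPM, then aDG at 12.98, pDG at 11.6 and BLA at 10.7 CPM. ACC exceeded BLA by 0.61 ± 0.15 (SE) on the log2 scale (edgeR adjusted p = 0.000714), pDG by 0.51 ± 0.14 (0.00256) and aDG by 0.38 ± 0.14 (0.0216). The neighbours aDG, pDG and BLA did not differ detectably in this fit (0.267 to 0.731). In the fit matched by title number aDG exceeded BLA by 0.28 on the log2 scale (edgeR adjusted p = 0.00137). In saline libraries alone none of the 3 passed, with -0.49 for BLA (edgeR adjusted p = 0.0588), -0.33 for pDG (0.193) and -0.17 for aDG (0.527) against ACC. In betamethasone libraries alone all 3 passed, at -0.77 (edgeR adjusted p = 0.00797), -0.69 (0.00868) and -0.58 (0.0213). The difference between the treatments was not tested, because the choice of the identifiers used each region's change. The aDG difference was also lost without ACC betamethasone replicate 3 (0.0673) or ACC saline replicate 2 (0.0559). Of the rows, row 1 differed between BLA and ACC by -0.61 ± 0.16 and row 2 by -0.64 ± 0.21 (edgeR adjusted p = 0.00162 and 0.0122). Between pDG and ACC row 1 passed (-0.52 ± 0.15, edgeR adjusted p = 0.00421) and row 2 did not (-0.36 ± 0.20, 0.128). Between aDG and ACC row 1 also passed (-0.39 ± 0.15, edgeR adjusted p = 0.0303) and row 2 did not (-0.29 ± 0.20, 0.225).

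ENSMFAG00000001780 was lowest in pDG, at 3.07 CPM, against 4.12 in aDG, 4.84 in ACC and 5.05 in BLA. The log2 difference from BLA was -0.77 ± 0.18 (SE; edgeR adjusted p = 0.000762) and from ACC -0.70 ± 0.17 (0.000612), and both were lost in saline libraries alone (-0.53 and -0.49, edgeR adjusted p = 0.148 and 0.108). Its pDG level was below that of aDG by 0.41 ± 0.17 on the log2 scale, which did not pass (edgeR adjusted p = 0.193), and aDG, ACC and BLA did not differ detectably (0.142 to 0.762). Its saline group in pDG included replicate 6 at 1.95 CPM. ENSMFAG00000042464 was flattest across regions, at 33.7 CPM in ACC, 32.4 in aDG, 29.9 in BLA and 26.7 in pDG. Only the difference between its outer regions passed, -0.35 ± 0.11 for pDG against ACC (edgeR adjusted p = 0.00649), and it too was lost in saline libraries alone (-0.25, 0.215). Neighbours in that order did not differ detectably (0.242 to 0.641).

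ENSMFAG00000001388 stood at 7.57 CPM in aDG, 7.37 in ACC, 6.05 in pDG and 5.73 in BLA. BLA was below ACC by 0.38 ± 0.12 (SE) on the log2 scale (edgeR adjusted p = 0.00848) and below aDG by 0.36 ± 0.12 (0.0264), and pDG was below ACC by 0.28 ± 0.12 (0.0388). The neighbours aDG and ACC (0.887) and pDG and BLA (0.602) did not differ detectably. All 3 differences were lost in saline libraries alone (-0.29, 0.43 for aDG over BLA, and -0.22; edgeR adjusted p = 0.232, 0.161 and 0.363). The second and the third were also lost in betamethasone libraries alone (0.33 and -0.35, edgeR adjusted p = 0.159 and 0.0597). The 0.43 and the -0.35 were larger than the differences over all libraries, and these fits hold fewer libraries. The difference between aDG and BLA was lost without aDG saline replicate 6, BLA betamethasone replicate 3 or 4 (0.0540 to 0.0662). That between pDG and ACC was lost on leaving out any of 17 single libraries (0.0502 to 0.0907). Of those 17 there were 7 from ACC (betamethasone replicates 1, 2 and 3, saline replicates 1, 2, 4 and 6) and 6 from pDG (betamethasone replicates 2, 4 and 5, saline replicates 2, 4 and 6). The other 4 were BLA betamethasone replicate 2, BLA saline replicates 3 and 6, and aDG betamethasone replicate 1.

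**Figure D4:**
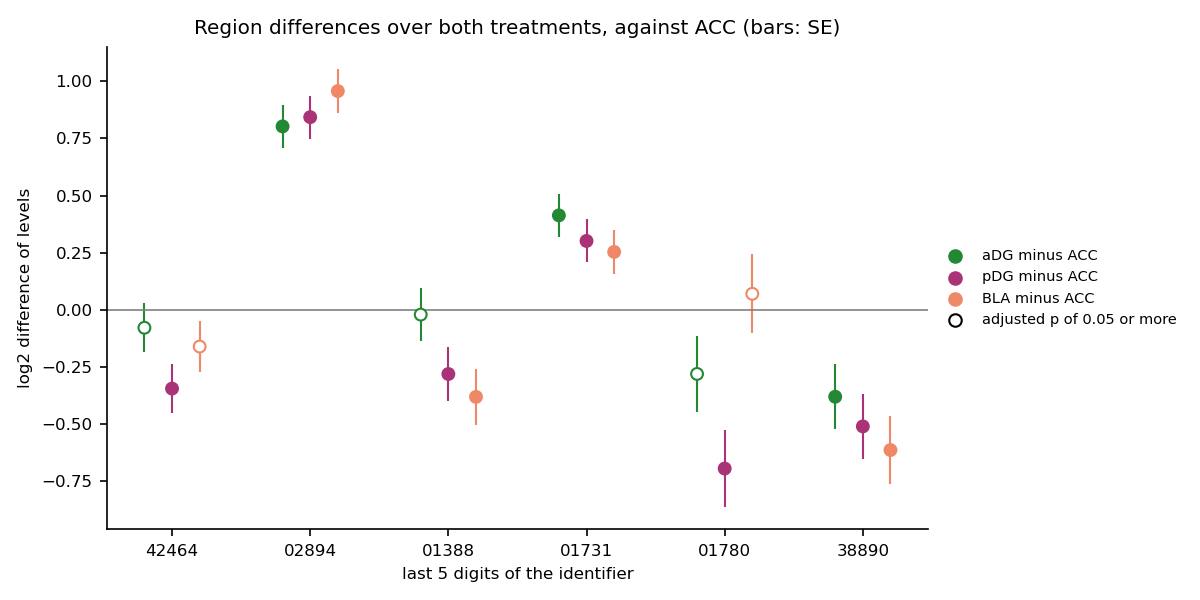
Log2 difference of the level in aDG, pDG and BLA from that in ACC (vertical axis) for each identifier, given by its last 5 digits, with bars of 1 SE; open points did not pass the adjusted p of 0.05. ENSMFAG00000002894 lies at 0.80 to 0.96 above ACC and ENSMFAG00000038890 at 0.38 to 0.61 below it.

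Libraries of one group also differed among themselves, and the identifiers were compared in those deviations from the group mean of log2 CPM, which hold neither treatment nor region. The correlations are descriptions over 44 libraries, which share depth, RNA quality and possibly animals. ENSMFAG00000042464 and ENSMFAG00000038890 moved most closely together (Pearson's r = 0.82, Spearman's rho = 0.84). Their r was 0.75 in aDG, 0.84 in pDG, 0.79 in BLA and 0.90 in ACC, and it was 0.87 in betamethasone and 0.78 in saline libraries. ENSMFAG00000001780 went with both (r = 0.57 and 0.62), with 0.76 and 0.81 in saline and 0.30 and 0.38 in betamethasone libraries. By region its r with ENSMFAG00000042464 was 0.05 in aDG and 0.12 in BLA, against 0.75 in pDG and 0.85 in ACC, and its r with ENSMFAG00000038890 was 0.49, 0.51, 0.63 and 0.80 in the same order. ACC betamethasone replicate 3, high for all 3 of them, and pDG saline replicate 6, low for all 3, lie at the ends of this relation.

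Over all 44 libraries the other 3 followed them less closely. ENSMFAG00000001388 and ENSMFAG00000002894 had an r of 0.36, ENSMFAG00000001388 and ENSMFAG00000001731 one of -0.41, and ENSMFAG00000001731 and ENSMFAG00000002894 one of -0.02. The last pair had an r of 0.68 in betamethasone and -0.25 in saline libraries. With ENSMFAG00000042464 these 3 had an r of -0.04, -0.19 and 0.22 (ENSMFAG00000001388, ENSMFAG00000002894 and ENSMFAG00000001731). By region the r of ENSMFAG00000001731 with ENSMFAG00000042464 was 0.55 in aDG, 0.18 in pDG, 0.48 in BLA and 0.04 in ACC. Its r with ENSMFAG00000038890 was 0.63, 0.32, 0.20 and -0.14 in the same order. In aDG both values were above those of ENSMFAG00000001780 (0.05 and 0.49). The deviation of ENSMFAG00000001731 went with the share of mapped reads outside genes (r = 0.49, rho = 0.50), more than that of ENSMFAG00000042464 (0.33 and 0.28) or the other 4 (r from -0.24 to 0.19). The part of that share in the results was not tested beyond the covariate fits given here.

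**Figure D5:**
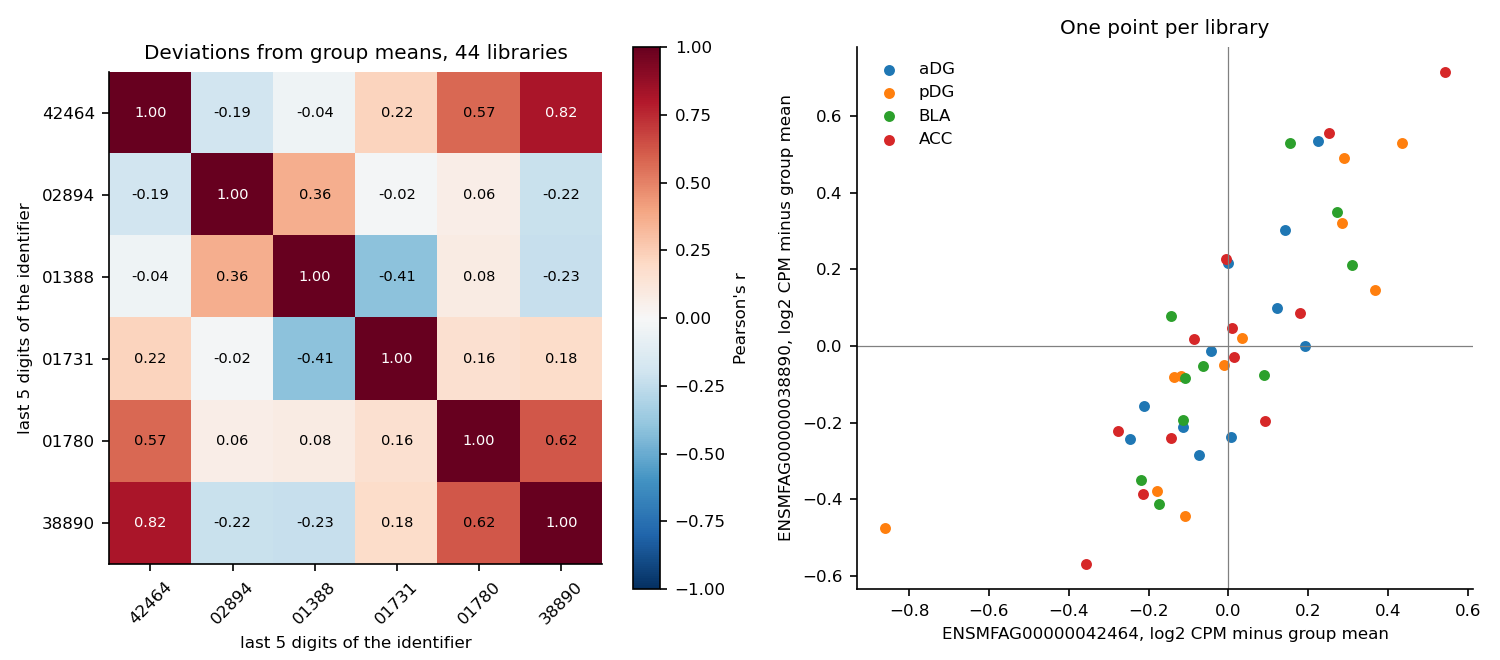
Left, Pearson's r between the identifiers (last 5 digits) over deviations of log2 CPM from the group mean in 44 libraries; right, those deviations for ENSMFAG00000042464 and ENSMFAG00000038890, 1 point per library, coloured by region. The block of ENSMFAG00000042464, ENSMFAG00000001780 and ENSMFAG00000038890 has r of 0.57 to 0.82, and points of the 4 regions overlap.

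Among the 15256 other identifiers kept by the filter, the one whose deviations were most like those of ENSMFAG00000042464 was ENSMFAG00000038890, and the reverse held too (r = 0.82 over 44 libraries). The next identifier in rank came close to this, at r = 0.792 with ENSMFAG00000042464 and 0.798 with ENSMFAG00000038890. For ENSMFAG00000001780 the most like was ENSMFAG00000037042 (r = 0.798). It averaged 7.60 CPM with betamethasone and 13.7 with saline in aDG but 17.9 and 17.5 in ACC. For ENSMFAG00000002894 it was ENSMFAG00000031673 (r = 0.93), and 53 identifiers reached 0.80 with that member. ENSMFAG00000031673 averaged 6.99 CPM with betamethasone and 8.50 with saline in aDG and 7.27 and 7.09 in ACC. For ENSMFAG00000001388 it was ENSMFAG00000043290 (r = 0.71), whose mean in ACC was 83.3 CPM with betamethasone and 50.3 with saline, the opposite order to the member. For ENSMFAG00000001731 it was ENSMFAG00000043921 (r = 0.71), at 4.04 and 5.57 CPM in aDG and 3.55 and 5.26 CPM in ACC.

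The opposite strand held 0.0853% to 0.290% of the reads of each identifier. On row 2 of ENSMFAG00000038890 it held 1.73%.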

How the data were processed

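Total RNA of 44 libraries had been sequenced and counted per gene. The submitters' processing notes name STAR; version, build and annotation were not given in the sources used here. The deposited tables hold whole-number read counts, unstranded and per strand. The column of the strand with the larger gene total (51.7 to 79.3 times the other) was used, rows that name no gene were left out, and rows of one identifier were summed. Those rows held 11.0% to 31.4% of reads as unmapped, and 24.5% to 37.2% of mapped reads as outside genes. Multimapping reads are listed as 0, so reads shared by near-identical copies may be uncertain.

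Groups follow the labels; the replicate number is the order of accessions in a group. Counts were fitted with edgeR 4.0.16 in R 4.3.3 (TMM, filterByExpr with minimum count 10 and minimum total 15, robust quasi-likelihood F test, Benjamini-Hochberg adjustment over all genes kept, threshold 0.05). Treatment was fitted in each region alone, and regions in one fit of 8 groups. SE is the log2 change divided by the square root of F. Deviations used log2 CPM with a prior count of 2. DESeq2 1.42.0 and the other alternatives are listed in the closing section. The fit was tested on simulated data.

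The identifiers and tests were chosen with earlier results of these data known. All 6 passed the filter and are named, with the identifier most like each.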

Additional observations from a re-analysis of the deposited data

Results flagged for a closer look

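Of 48 sets of 4 to 6 values (6 identifiers in 8 groups), 1 held a library far from the others. Chance gives such a library in about 1 set of 20, so this is no excess. The set was ENSMFAG00000001731 in pDG saline libraries, where replicate 5 held 152.2 CPM while the next library of the group held 102.6. Without that library the log2 change in pDG was -0.35 in place of -0.49. Saline replicate 5 was also the highest saline library of this identifier in aDG (120.1 CPM), BLA (126.7 CPM) and ACC (97.4 CPM). In ACC replicate 4 came close, at 96.9 CPM. The title numbers of these saline replicates 5 belong to one series through the regions, but the labels do not say that they came from one animal.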

How the results depend on the processing

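The sign of the treatment change stayed the same for each of the 6 identifiers in each region under all alternatives (384 values). The identifiers were picked as lower with betamethasone in these same libraries, so the stable sign supports nothing. Of the 15 region differences past the threshold, 4 passed under all 54 alternatives, 10 were lost in saline libraries alone and 4 in betamethasone libraries alone, which hold fewer samples. Leaving out aDG and BLA saline replicates 5 lost 1 (ENSMFAG00000001731 between BLA and ACC, edgeR adjusted p = 0.0654).

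The title numbers run in parallel through the regions, and 55 of 60 pairs of libraries matched by them had deviations over all genes that correlated above 0.1 (-0.07 to 0.66). The matched libraries carry different title numbers that keep the same order in each region, and the labels name no animal. With these 10 sets as a replicate block (40 libraries) no region difference of the 6 was lost and 5 more passed in edgeR. These were aDG against BLA for ENSMFAG00000038890 (adjusted p = 0.00137), ENSMFAG00000001731 (0.0161) and ENSMFAG00000001780 (0.0212), and aDG against pDG for ENSMFAG00000042464 (0.0312) and ENSMFAG00000001780 (0.0343). With the block 1139 genes passed between aDG and pDG, against 340 in the same libraries without the block, where 4 differences of the 6 were lost.

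Over all genes, the count between aDG and pDG was 533, and it was 812 with DESeq2, 324 with the share outside genes as a covariate, 981 without aDG and BLA saline replicates 5, and 353 to 847 with 1 library left out. In saline libraries alone edgeR gave 4734 genes for aDG against ACC, 5209 for pDG against ACC, 4560 for BLA against ACC, 1190 for aDG against BLA, 2131 for pDG against BLA, and 0 for aDG against pDG (654 at an unadjusted p under 0.05). For treatment, DESeq2 called 36 genes in aDG, 82 in pDG, 73 in BLA and 557 in ACC, against 1, 1, 0 and 48 in edgeR. Leaving out 1 library gave 0 to 2 in aDG, 0 to 7 in pDG and 3 to 206 in ACC, and the covariate gave 13 in ACC. Depth limits ENSMFAG00000001780 and row 2 of ENSMFAG00000038890 most.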
